A study of Homo sapiens with 9 samples.

Results

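The DHRS genes encode members of the short-chain dehydrogenase/reductase family, and 9 of them were examined here: DHRS1, DHRS2, DHRS3, DHRS4, DHRS7, DHRS9, DHRS11, DHRS12 and DHRS13. They make up 9 of the 21357 genes named on the array and were measured by 16 of its 54675 probe sets. Of these, 12 probe sets, with at least 1 annotated to each of the 9 genes, were among the 29977 that passed the filter on dim values. The only DHRS4 probe set is also annotated to DHRS4L2, so DHRS4 was not measured by itself. The family was chosen from measured values of these arrays. These were taken to be the differences between TIG1A and control cells, where a DHRS7 probe set was among those called, although which values led to the choice is not recorded. The members' values in that comparison are therefore given as a description without a p, with counts of calls only beside the share called over all probe sets. The other comparisons share arrays with it, so their tests are no independent support.

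The arrays compared 3 stable clones of HCT116, a colon cancer cell line, made with the GeneSwitch system, in which mifepristone (MFP) activates a hybrid regulator that switches on a second plasmid. TIG1A and TIG1B cells carried that plasmid with isoform A or isoform B of TIG1 (tazarotene-induced gene 1, symbol RARRES1), and control cells carried it empty. All 9 cultures, 3 per group and controls included, held the regulator plasmid and received 5 nM MFP for 24 h. Each group was 1 clone, so effects of the isoform and differences between clones cannot be told apart.

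Short-chain dehydrogenases/reductases use NAD(H) or NADP(H) to interconvert alcohols with aldehydes or ketones, and their substrates include retinoids, steroids and xenobiotic carbonyls. In retinoid metabolism, retinol is oxidised to retinaldehyde, which is either reduced back to retinol or oxidised irreversibly to retinoic acid. DHRS3 and DHRS4 are known as reductases of retinaldehyde, and DHRS9 as an oxidising enzyme of retinol and of steroids. DHRS2 (HEP27) and DHRS11 are carbonyl reductases, and DHRS7 is a reductase of the endoplasmic reticulum.

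The 250 bases before the start of 8 of the 9 genes, all but DHRS7, were read from the RefSeq promoter table (GRCh38.p14), and 3 of them are shown because they span the range of base composition in the family. Capitals mark TATAAA (the core of the TATA box) or GGGCGG (a GC box), searched on both strands together with CCAAT. GC boxes were allowed to overlap. Each is written 5′ to 3′ on the plus strand, which is the strand of the gene. The windows lie at chr14:23629865-23630114 for DHRS2, chr2:169066827-169067076 for DHRS9 and chr17:36591629-36591878 for DHRS11.
DHRS2: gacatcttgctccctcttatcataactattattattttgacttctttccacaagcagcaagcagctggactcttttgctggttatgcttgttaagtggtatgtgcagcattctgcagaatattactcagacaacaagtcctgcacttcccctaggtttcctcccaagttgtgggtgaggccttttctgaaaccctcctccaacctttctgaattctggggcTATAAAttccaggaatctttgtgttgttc
DHRS9: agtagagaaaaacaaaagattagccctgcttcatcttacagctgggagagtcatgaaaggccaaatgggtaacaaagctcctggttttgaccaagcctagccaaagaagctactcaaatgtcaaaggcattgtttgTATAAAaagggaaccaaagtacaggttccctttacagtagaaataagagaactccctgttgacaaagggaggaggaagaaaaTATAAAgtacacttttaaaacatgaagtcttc
DHRS11: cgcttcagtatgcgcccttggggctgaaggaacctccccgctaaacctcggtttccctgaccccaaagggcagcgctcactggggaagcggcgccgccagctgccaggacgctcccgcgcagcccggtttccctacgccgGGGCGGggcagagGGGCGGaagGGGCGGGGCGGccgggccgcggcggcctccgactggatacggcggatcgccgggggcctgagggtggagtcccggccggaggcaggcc

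DHRS2 and DHRS9 had the windows poorest in G and C, with 43.2% and 39.2%, against a median of 57.6% over 27305 windows, and held 0 CpG each. DHRS2 held TATAAA once, at bases -29 to -24 from the start. DHRS9 held it at -32 to -27 and again at -114 to -109. The other 6 windows, those of DHRS1, DHRS3, DHRS4, DHRS11, DHRS12 and DHRS13, had 65.2% to 74.8% G and C, 19 to 29 CpG and no TATAAA. GC boxes were in 5 of these 6, up to 4 in DHRS4, DHRS11 and DHRS12, and DHRS13 had 0. Over all windows, TATAAA was found in 11.2%, GGGCGG in 42.2% and CCAAT in 33.0%. Neither CCAAT nor AGGTCA, the half-site of nuclear receptors found in 12.2% of windows, was in any of the 8. The letters of the GAL4 site, to which the GeneSwitch regulator binds (CGG and CCG parted by 11 bases), were in 12.2% of windows and, among the members, only in that of DHRS12. The table gives 1 start for DHRS2 and 4 for DHRS9, of which the most upstream was used.

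**Figure D1:**
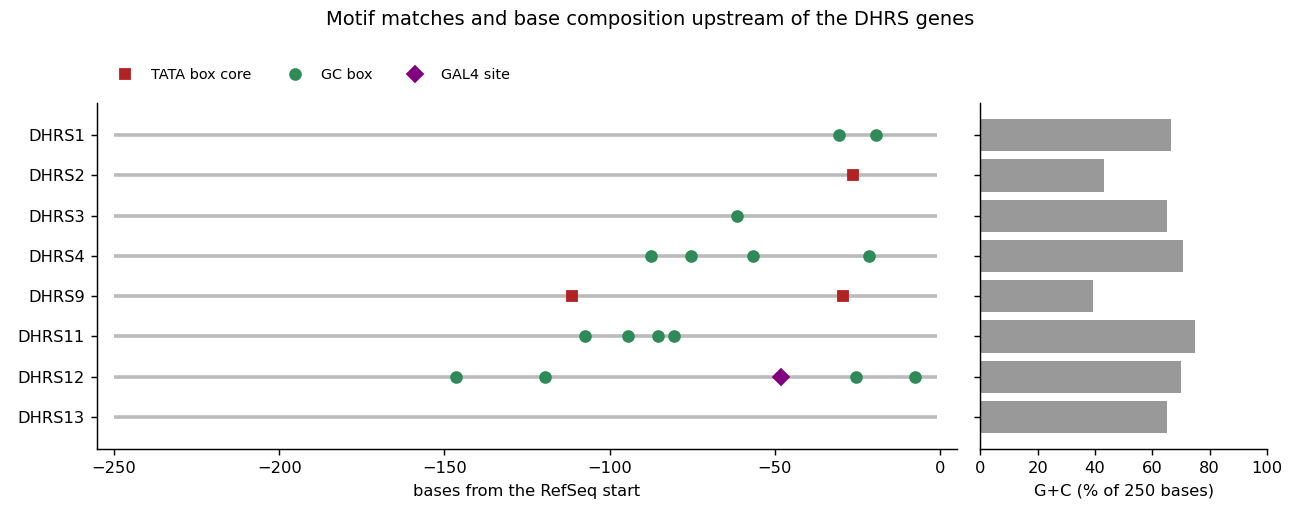
Positions of searched motifs in the 250 bases before the start of 8 DHRS genes; the x axis is the distance from the start in bases, and each marker is 1 match on either strand, and bars give the percent of G and C. The TATA box core appears in DHRS2 and DHRS9, and the GC box in 5 of the other 6 windows.

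The deposited values were array intensities on a linear scale, set by the authors' software to a common target, with array medians of 59.9 to 73.9. RARRES1, the induced gene, had a mean intensity on probe set 206392_s_at of 62881 ± 4179 (SD, n = 3) in TIG1A and 39336 ± 4496 in TIG1B cells, beside 4.24 ± 1.19 in control cells. Of 9 colon epithelial markers, CDH1, EPCAM, KRT8, KRT18 and KRT19 were at or above the array median on all 9 arrays, whereas CDH17, CDX2, KRT20 and VIL1 were not. Summed intensities of these markers were 119600 to 131800 in control, 109100 to 121800 in TIG1A and 106300 to 138000 in TIG1B cells. Of 6 fibroblast markers only COL1A1 was so on every array, and their sums were 1362 to 2271 in control, 2221 to 2840 in TIG1A and 1764 to 2223 in TIG1B cells. Of 3 endothelial markers only PECAM1 was, and of 3 leukocyte markers on the array 0 were. The part of these differences in the results below was not tested. Control replicate 3 held the lowest of the 9 intensities for 4 of the 12 DHRS probe sets (33.3%, in DHRS1, DHRS3, DHRS7 and DHRS11), against 14.1% of all kept probe sets.

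DHRS2 was the 1 member called between the TIG1 lines. Its intensity was 6.12 to 10.1 times higher in TIG1A cells than in either other line, on both of its probe sets. Probe set 206463_s_at read 793.5, 1284 and 1175 in the control cultures, 13321, 10120 and 9125 in TIG1A and 1582, 1043 and 1485 in TIG1B. The lowest TIG1A value lay far above all 6 others, whereas TIG1B and control values overlapped. Probe set 214079_at read 2644, 4050 and 2932 in control cultures, 20379, 20359 and 20433 in those with TIG1A and 2609, 3302 and 4294 in those with TIG1B. The 3 TIG1A values of this probe set were nearly equal (20390 ± 38.5), and TIG1B and control again overlapped.

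Between the lines, DHRS2 passed the test on both probe sets. The log2 intensity was 2.99 higher in TIG1A than in TIG1B on 206463_s_at (SE 0.257, 95% interval 2.40 to 3.59, 7.95-fold) and 2.61 higher on 214079_at (interval 2.09 to 3.14, 6.12-fold), with an adjusted p of 0.014 for each in limma's moderated test over all kept probe sets. The TIG1A arrays of this test also served in the comparison from which the family was chosen. Some calls were lost when 1 array was left out. Without TIG1A replicate 2 the adjusted p was 0.0719 and 0.0733, without TIG1B replicate 2 it was 0.0647 and 0.0735, and without TIG1A replicate 1 it was 0.0555 on 214079_at, whereas the log2 differences stayed between 2.44 and 3.11 whichever array was left out. It was also above the threshold with no filter on dim probe sets (0.0577 for both) with the 6 arrays of these lines alone (0.0506 for both) and with the gene-by-gene test of the study's methods (0.0545 and 0.053).

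Against control cells, TIG1A cells had a DHRS2 intensity 10.1-fold higher on 206463_s_at (log2 difference 3.34, SE 0.257) and 6.46-fold higher on 214079_at (log2 2.69, SE 0.226), given as a description. TIG1B cells did not pass. Their log2 difference was 0.34 (interval -0.25 to 0.94, limma adjusted p = 0.516) and 0.079 (interval -0.44 to 0.60, adjusted p = 0.883), so a rise near that of TIG1A lay outside both intervals.

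DHRS7 was measured by 3 probe sets that behaved differently from each other. Probe set 213868_s_at read 67.4, 8.90 and 4.53 in control cultures, 332.5, 235.7 and 316.0 in those with TIG1A and 210.0, 116.4 and 211.4 in those with TIG1B. All control values were below the median of their array, and no value of either TIG1 line was. Set against those array medians, TIG1A intensity was at least 4.07-fold higher than control and TIG1B intensity at least 2.41-fold higher. Fewer cells with the transcript and less of it per cell cannot be told apart in such bulk samples.

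This probe set was kept by the filter only through the TIG1 lines, and its control readings are those of the comparison used for the choice, so its tests support nothing about the family. The TIG1B difference missed the threshold (log2 difference 3.63, interval 1.61 to 5.65, limma adjusted p = 0.0863) although its groups did not overlap. The call depended on the setting. The adjusted p was 0.0135 (log2 difference 4.77) without control replicate 1, the control reading nearest to the TIG1 lines. It was also under the threshold with an offset of 50 added before the logarithm (log2 1.64, adjusted p = 0.025) and with the trend and robust options of limma (adjusted p = 0.0162). The groups of TIG1A and TIG1B did not overlap either, but the difference between them did not pass (log2 difference 0.75, adjusted p = 0.776).

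Probe set 210788_s_at gave values of 7171, 5540 and 6783 in control cultures, 9924, 8557 and 7893 in those with TIG1A and 7221, 7135 and 6226 in those with TIG1B. TIG1A lay above every control value by a small margin (log2 difference 0.44, SE 0.159), and TIG1B overlapped with control (log2 0.084, limma adjusted p = 0.815). The difference between the lines did not pass (log2 0.35, adjusted p = 0.396). On the third probe set, 236332_at, the fitted differences had the opposite sign. It read 109.9, 61.4 and 101.1 in control cultures and 17.1, 63.4 and 71.6 in those with TIG1A. In those with TIG1B it read 47.9, 34.5 and 55.3, below all control values. This probe set was dim, at or above the array median in 2 of 3 control, 2 of 3 TIG1A and 0 of 3 TIG1B cultures. The log2 difference was -1.05 (SE 0.539, interval -2.292 to 0.2025) for TIG1A. For TIG1B it was -0.97 (interval -2.215 to 0.2804), which did not pass (adjusted p = 0.383). Both intervals included 0, so this probe set does not decide whether the 3 probe sets of DHRS7 share a direction.

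**Figure D2:**
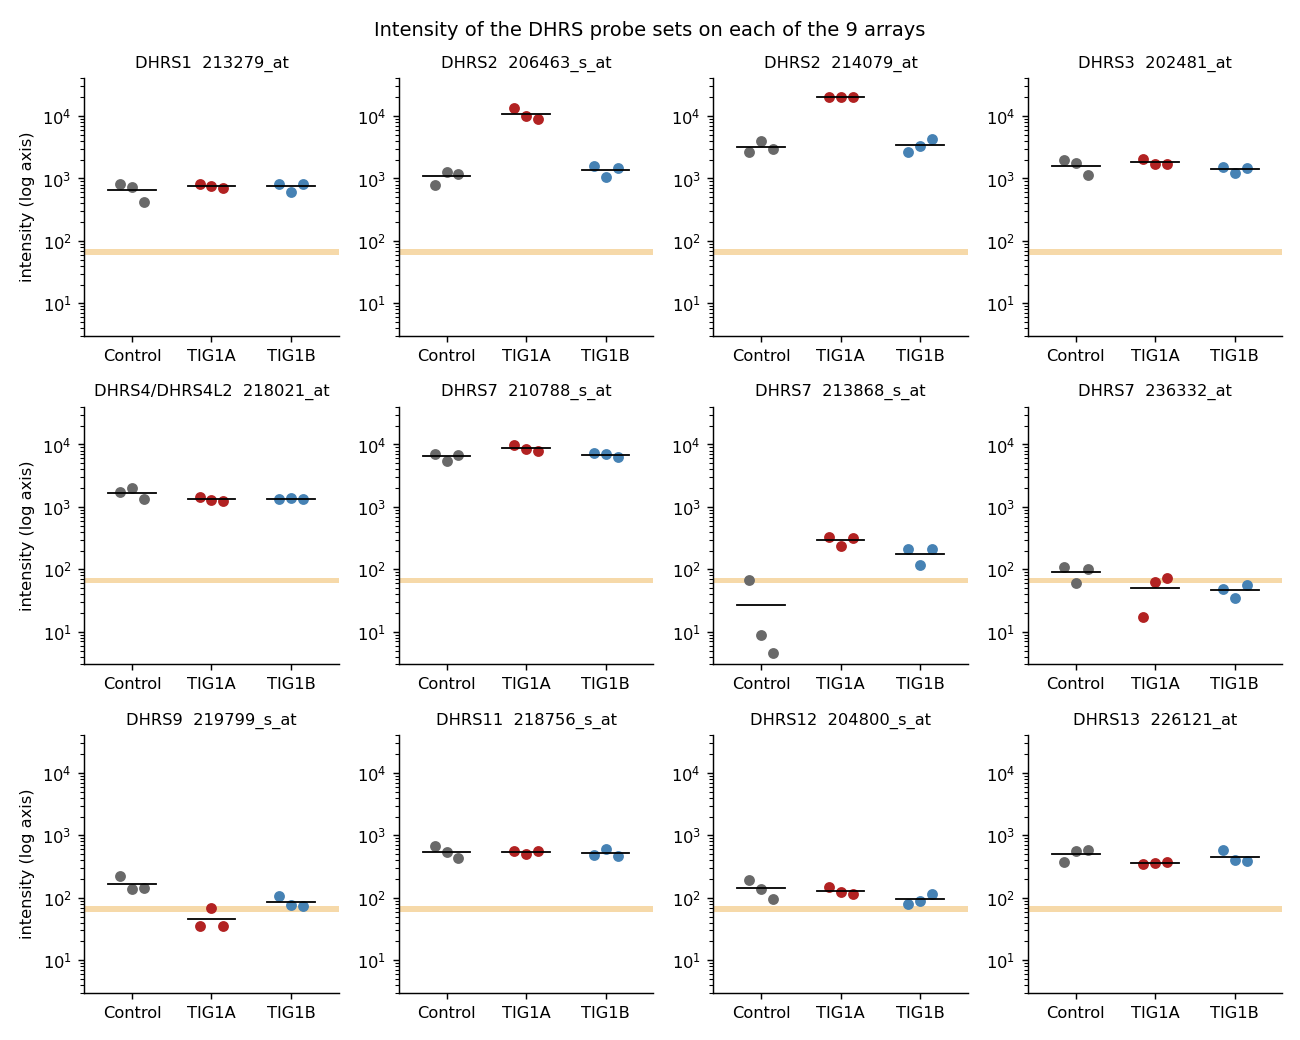
Intensity of the 12 kept DHRS probe sets on each of the 9 arrays (log axis), with control, TIG1A and TIG1B arrays as separate groups of 3 points; lines are group means and the band spans the array medians (59.9 to 73.9). DHRS2 in TIG1A cells (9125 to 20433) and DHRS7 213868_s_at in control cells (4.53 to 67.4) stand apart from the other groups of their probe sets.

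DHRS9, the retinol and steroid dehydrogenase, had lower values in both TIG1 lines than in control cells, without passing the test in TIG1B, on the 1 of its 3 probe sets that the filter kept. Probe set 219799_s_at read 221.9, 139.6 and 145.1 in control cultures, 35.9, 68.6 and 35.3 in those with TIG1A and 106.5, 75.6 and 73.0 in those with TIG1B. No group overlapped with another, and the order was control, TIG1B, TIG1A. The TIG1A intensity was 3.73-fold lower than control (log2 -1.90, SE 0.318), with only 1 of 3 TIG1A arrays at or above the array median. The TIG1B difference from control was -0.98 on the log2 scale (interval -1.72 to -0.24) and did not pass (limma adjusted p = 0.162), nor did that between the lines (-0.92, adjusted p = 0.28). The other DHRS9 probe sets, 223952_x_at (7.77 to 62.1) and 224009_x_at (8.06 to 82.8), were at or above the array median on 0 and 2 of the 9 arrays.

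The members known as reductases of retinaldehyde did not pass the test in TIG1B or between the lines. DHRS3 read 1947, 1752 and 1125 in control cultures, 2050, 1709 and 1706 in those with TIG1A and 1527, 1210 and 1476 in those with TIG1B on 202481_at. TIG1A was above TIG1B on every array, but neither that difference (log2 0.38, limma adjusted p = 0.536) nor that of TIG1B from control (-0.16, adjusted p = 0.737) passed. Probe set 218021_at, annotated to DHRS4 and to its near copy DHRS4L2 and so assignable to neither, averaged 1696 ± 337 in the controls, 1323 ± 104 with TIG1A and 1354 ± 19.0 with TIG1B (SD, n = 3 each). Its log2 difference was -0.34 for TIG1A and -0.31 for TIG1B (adjusted p = 0.381), and -0.036 between the lines (adjusted p = 0.956).

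The carbonyl reductase DHRS11 averaged 545 ± 118 in the controls, 550 ± 35.7 with TIG1A and 514 ± 71.3 with TIG1B (SD, n = 3 each), with log2 differences of 0.035 and -0.070 (TIG1B limma adjusted p = 0.874). DHRS1 averaged 658 ± 205, 753 ± 52.8 and 745 ± 120 in the same order, and TIG1B was not called (log2 0.22, adjusted p = 0.689). For both genes the control spread exceeded the difference between groups. DHRS13 values in TIG1A cells (346, 361 and 376) were below all TIG1B values (392 to 574), and its mean was 503 ± 112 in control, with log2 differences of -0.45 for TIG1A, -0.13 for TIG1B (adjusted p = 0.793) and -0.32 between the lines (adjusted p = 0.588). DHRS12 on 204800_s_at averaged 144 ± 50.4, 129 ± 16.6 and 94.2 ± 17.9, with the TIG1B value -0.56 from control on the log2 scale (interval -1.20 to 0.067, adjusted p = 0.319). Its other probe sets, 204801_s_at (11.3 to 105.4) and 231345_s_at (6.23 to 87.8), were left out by the filter.

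**Figure D3:**
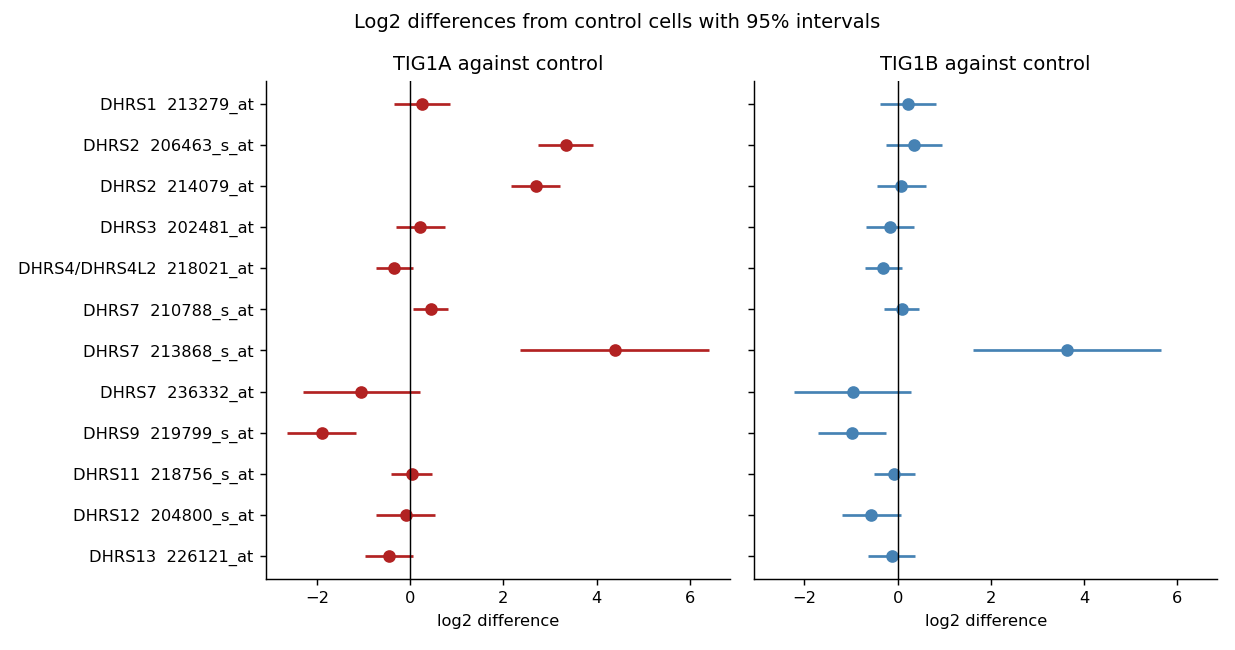
Log2 difference of TIG1A (left) and TIG1B (right) from control for the 12 kept DHRS probe sets; points are fitted differences, bars are 95% intervals and the line marks 0. DHRS2 lies at 3.34 and 2.69 in TIG1A and at 0.34 and 0.079 in TIG1B, and the values of DHRS7 213868_s_at rest on control readings below the array median.

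Counted over the family, 4 of 12 probe sets were called at an adjusted p of 0.05 for TIG1A against control, 3 higher (both of DHRS2 and 213868_s_at of DHRS7) and 1 lower (DHRS9). Over all kept probe sets 6.06% were called there, 2.86% higher and 3.20% lower. The groups did not overlap for 5 of the 12, against 30.7% of all. Nothing is read from these counts, since the family was chosen on this comparison. The count was 2, those of DHRS2, without control replicate 2, TIG1A replicate 1 or TIG1A replicate 3, and DHRS7 213868_s_at kept its call in only 2 of the 9 fits with 1 array left out. That probe set was the last inside the threshold, and the first outside it was DHRS7 210788_s_at.

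For TIG1B against control, limma called 0 of 12 DHRS probe sets, with a background of 1.78%. The unadjusted p was under 0.05 for 2 of them, DHRS7 213868_s_at and DHRS9, beside 18.5% of all kept probe sets, and the gene-by-gene test of the study's methods called 0 after adjustment and 3 before. Groups did not overlap for 3 of 12 (DHRS7 213868_s_at and 236332_at, and DHRS9), with 24.9% over all. For TIG1A against TIG1B, 2 of 12 were called, both of DHRS2 and both higher, where 0.417% of all probe sets were called and 0.277% were called higher. These 2 measure the same gene and are not independent. Groups did not overlap for 8 of 12, against 24.1%. The median log2 difference of the 12 was 0.124 for TIG1A, -0.0993 for TIG1B and 0.23 between the lines, beside -0.0437, -0.03 and 0.000544 over all kept probe sets. TIG1A and TIG1B were compared with the same 3 control arrays.

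Of the family, DHRS2, DHRS4, DHRS1 and DHRS7 lie on chromosome 14. In GRCh38, DHRS2 spans chr14:23630115-23645639, and DHRS4, DHRS4L2 and DHRS1 start 324, 340 and 660 kb from its start, DHRS7 36514 kb away. The 24 measured genes around DHRS2, 12 on each side, had a median log2 difference of -0.086 in TIG1A (range -2.87 to 0.92) and 0.0497 in TIG1B cells, and limma called 0 of the 24 in either line (4 and 3 at an unadjusted p under 0.05, beside 25.0% and 18.5% of all kept probe sets). Around DHRS7 the medians were -0.0537 and 0.0058, with 1 of 24 genes called lower in TIG1A, and around DHRS9 on chromosome 2 they were -0.0398 and 0.0569, also with 1 called lower in TIG1A. Over all kept probe sets 3.20% were called lower there. The unadjusted p was under 0.05 for 7 and 2 of 24 around DHRS7 and for 9 and 4 around DHRS9, beside the same 25.0% and 18.5%.

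**Figure D4:**
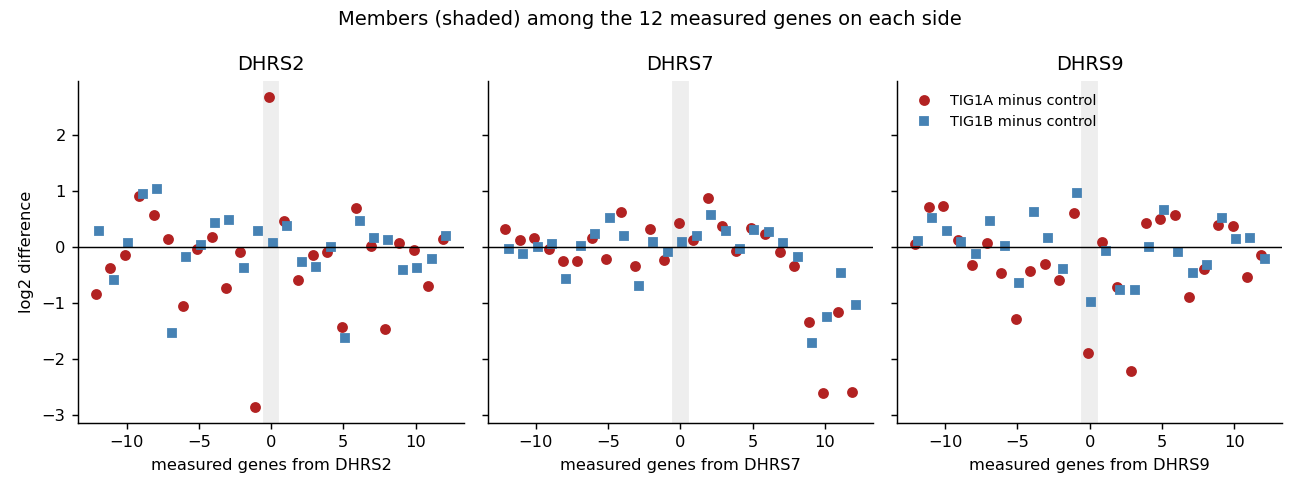
Log2 difference from control of DHRS2, DHRS7 and DHRS9 (shaded, position 0) and of the 12 measured genes on each side in chromosome order, for TIG1A (circles) and TIG1B (squares), with the brightest kept probe set of each gene. DHRS2 in TIG1A cells lies at 2.69 and its 24 neighbours between -2.87 and 0.92.

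Related enzymes were followed on lists of genes. Of 10 further DHRS-type genes, 7 were measured by 12 probe sets, and 0 of these 12 were called by limma in any of the 3 comparisons (unadjusted p under 0.05 for 2 in TIG1A, 0 in TIG1B and 1 between the lines, beside 25.0%, 18.5% and 13.3% of all kept probe sets). The smallest p in TIG1A was that of HSD17B14 on 219113_x_at (log2 -2.69, adjusted p = 0.105). This probe set averaged 138.3 ± 57.71 in control and was dim in TIG1A cells (32.1 ± 37.41). The gene's probe set 228713_s_at averaged 120.3 ± 56.89 and 85.75 ± 24.41. In TIG1B cells the smallest p was that of HSDL2 (0.58, adjusted p = 0.282). Of 38 symbols of other short-chain dehydrogenases/reductases, GFUS being listed also under its older name TSTA3, 27 were measured by 46 probe sets. Of these probe sets 3 rose in TIG1A cells and 0 fell, or 6.52% called beside 6.06% of all kept probe sets. They were DCXR, the L-xylulose reductase (log2 0.98, adjusted p = 0.0379), and both probe sets of GFUS, an enzyme of GDP-fucose synthesis (0.72 and 0.63, adjusted p = 0.0451 and 0.0454). The DCXR call and those of GFUS remained in 1, 0 and 1 of the 9 fits with 1 array left out (adjusted p up to 0.127). In TIG1B and between the lines 0 of the 46 were called (7 and 6 at an unadjusted p under 0.05, beside the same 18.5% and 13.3%), and DCXR in TIG1B was 0.66 above control on the log2 scale (adjusted p = 0.15). The median log2 difference over the list was 0.13 in TIG1A and 0.261 in TIG1B. Over all 13407 genes it was -0.0311 and -0.0113, and these shifts were not tested.

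Among 33 genes of retinoid metabolism, 21 were measured by 32 probe sets, of which 2 rose and 2 fell in TIG1A cells, or 12.5% called beside 6.06% of all (2.86% higher and 3.20% lower), a difference in shares that was not tested. AKR1C3, an aldo-keto reductase of prostaglandins, steroids and retinaldehyde, rose from 96.3 ± 40.6 to 406 ± 49.9 (log2 2.17, limma adjusted p = 0.0148). DGAT1, an acyltransferase of triacylglycerol synthesis that can also esterify retinol, rose from 1831 ± 100 to 3756 ± 265 (log2 1.04, adjusted p = 0.021). CYP1B1, a cytochrome P450 that oxidises steroids and retinol, fell on 202436_s_at from 234 ± 19.3 to 85.7 ± 36.4 (log2 -1.56, adjusted p = 0.0402) and on 202435_s_at by at least 1.82-fold (adjusted p = 0.0481). With 1 array left out, AKR1C3 was called in 7 of 9 fits (not without TIG1A replicate 2 or 3, adjusted p up to 0.0582), DGAT1 in 6 (not without control replicate 2 or TIG1A replicate 2 or 3, up to 0.0791) and either CYP1B1 probe set in 1 (up to 0.121 and 0.14). All 7 calls on these lists were lost with no filter on dim probe sets and with the 6 arrays of the comparison alone. The median over the list was -0.17, beside -0.0311 over all 13407 genes. In TIG1B cells and between the lines 0 of the 32 were called (8 and 9 at an unadjusted p under 0.05, beside 18.5% and 13.3% of all). The smallest p in TIG1B were those of RDH11, a retinaldehyde reductase (232359_at, adjusted p = 0.0591), and LRAT, which esterifies retinol (log2 -1.09, adjusted p = 0.111). The RDH11 probe set was dim, with 66.76 ± 14.62 in control and 14.79 ± 12.01 in TIG1B cells. Set against the array medians, its TIG1B intensity was at least 1.015-fold lower.

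The probe sets most like DHRS7 213868_s_at over the 9 arrays, by Pearson's r of log2 intensity, were those of HERC1 (r = 0.99), QDPR (0.988), ENAH (0.983), CISD3 (0.98) and ALKBH7 (0.98), out of 83 with r above 0.95. QDPR, which regenerates tetrahydrobiopterin, is on the list of other short-chain dehydrogenases/reductases and was not called there. Against control it was 0.383 higher in TIG1A and 0.305 higher in TIG1B on the log2 scale. For DHRS2 214079_at, followed after its values had been seen, they were ZNF7 (0.992), GNAS (0.985), ABRAXAS2 (0.982), PPP2R2D (0.98) and DGAT1 (0.977), out of 20. Since the 9 arrays form 3 groups, these coefficients carry the order of the group means: ZNF7 was 1.23 higher in TIG1A than in control on the log2 scale and 0.00063 higher in TIG1B. HERC1 was 0.56 and 0.435 higher.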

How the data were processed

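Total RNA of 9 cultures was hybridised to Affymetrix HG-U133 Plus 2.0 arrays, and the submitters' notes name GCOS. The deposited values are intensities on a linear scale, which the authors scaled globally to a target of 500, and this was checked as the mean of each array without its lowest and highest 2%. The series description has 5 µM MFP overnight, whereas the labels and methods have 5 nM for 24 h, which is given here. The labels and methods also differ on the RNA amount. Detection calls were not used here. After 62 array control probe sets had been set aside, those at or above the 50th percentile of their array on at least 2 of 3 arrays of a group were kept, which replaced the study's filter. Intensities under 1 were set to 1. Log2 values of all 9 arrays were fitted with limma 3.58.1 in R 4.3.3 with 1 mean per group (6 residual degrees of freedom), and p-values adjusted by Benjamini-Hochberg over all kept probe sets at 0.05. Where a whole group lay below its array medians, folds were computed against those medians, while log2 differences and their intervals were left as fitted. Probe sets were named from the array's annotation, 41043 of 41097 single symbols being matched by gene number. All members were described, with list genes that passed or, at most 4 per list, had the smallest p. Members, lists and rules were chosen with earlier results of these data known. Alternatives were quantile normalization, median centring, an offset of 50, no or a stricter filter, the 6 arrays of a comparison, the replicate number as a block, limma's trend and robust options, the methods' t-test and each array left out. The fit was tested on simulated data. Replicates were independent samples of 1 clone each, so p-values measure the spread between cultures of a clone. The number of arrays limits the precision. Same-numbered replicates showed little common deviation (9 pairs, r -0.0369 to 0.192). Those of TIG1A with TIG1B were all positive (0.192, 0.0494 and 0.0644), beside -0.126 to 0.0895 for differently numbered arrays of these lines.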

Additional observations from a re-analysis of the deposited data

Results flagged for a closer look

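DHRS2 differed between the TIG1 lines by a direct test, in which both lines were set against each other and not each against control. The log2 intensity of TIG1A cells exceeded that of TIG1B cells by 2.99 on 206463_s_at and by 2.61 on 214079_at (limma adjusted p = 0.014 for each, higher in 3 of 3 TIG1A arrays). The TIG1A arrays are also those of the control comparison taken to have led to the choice of the family, so the test is not independent of it. The adjusted p ranged from 0.0172 to 0.0719 and from 0.0219 to 0.0735 when 1 array was left out, and was 0.0577 for both with no filter on dim probe sets, 0.0506 for both with the 6 arrays of these lines alone, and 0.0545 and 0.053 with the methods' t-test. No other DHRS probe set met this test.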

How the results depend on the processing

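Of 312 differences of single DHRS probe sets under other settings, 288 kept their direction and their side of the threshold. With 1 array left out, 294 of 324 did. For TIG1A against control, the count of 4 called DHRS probe sets became 2 with no filter, with the filter at the 75th percentile (8 DHRS probe sets tested), with the 6 arrays of the comparison alone and with the replicate number as a block, 1 with the t-test of the methods and 5 with the trend and robust options, which added DHRS7 210788_s_at. Leaving out each array gave 2 to 4. The calls over all probe sets were 1818 in the fit as reported, 2745 with the offset of 50, 59 with no filter, 3601 with the stricter filter, 166 with the 6 arrays, 637 with the block, 3571 with trend and robust options, 121 with the t-test and 255 to 2799 with 1 array left out. For TIG1B against control, the count of 0 became 1 with an offset of 50 and with the trend and robust options, each time DHRS7 213868_s_at, and ranged from 0 to 1 with 1 array left out. All calls were 535, 356 after median centring, 939 with the offset of 50, 11 with no filter, 1794 with the stricter filter, 15 with the 6 arrays, 2 with the block, 1563 with trend and robust options, 6 with the t-test and 59 to 1041 with 1 array left out. For TIG1A against TIG1B, the count of 2 became 0 with no filter, the 6 arrays alone, the block (adjusted p 0.104 and 0.0902 for DHRS2) and the t-test, and ranged from 0 to 2 with 1 array left out. All calls were 125, 58 after median centring, 220 with the offset of 50, 0 with no filter, 676 with the stricter filter, 2 with the 6 arrays, 0 with the block, 598 with trend and robust options, 66 with the t-test and 0 to 153 with 1 array left out. The replicate numbers gave no clear pairing of the cultures (1 of 9 pairs, TIG1A 1 with TIG1B 1, had r over 0.1). With no call to lose, TIG1B against control stayed at 0 with the block.

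Differences near 0 changed sign. After median centring the log2 difference from control was 0.0685 for DHRS12 204800_s_at in TIG1A, 0.0753 for DHRS11 and 0.0173 for DHRS13 in TIG1B, and with the offset of 50 that of DHRS7 236332_at between the lines was 0.0293. With 1 array left out, some log2 ranges crossed 0. For TIG1A against control, they were DHRS1 213279_at (-0.0435 to 0.422), DHRS3 (-0.0258 to 0.37), DHRS11 218756_s_at (-0.122 to 0.191) and DHRS12 (-0.357 to 0.16). For TIG1B against control, DHRS1 (-0.07 to 0.395), DHRS2 214079_at (-0.104 to 0.259), DHRS7 210788_s_at (-0.0269 to 0.159) and DHRS11 (-0.227 to 0.086). For TIG1A against TIG1B, DHRS1 (-0.115 to 0.098), DHRS4 (-0.0995 to 0.00183) and DHRS7 236332_at (-0.451 to 0.581). The causes were not tested. The calls of list genes were put through the same settings as a choice made after seeing the data, and of 7 calls 0 were left with no filter or with the 6 arrays alone, 2 with the block, 1 with the t-test, 5 after quantile normalization or median centring, 6 with trend and robust options and 7 with the offset of 50, while the stricter filter kept 5 of 5 tested. Their log2 differences kept direction, CYP1B1 between -2.32 and -0.962 and AKR1C3 between 1.68 and 2.45. Centring on array medians moved the median of all probe sets from -0.044 to 0.12 in TIG1A and from -0.03 to 0.12 in TIG1B against control.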
